A study of Rattus norvegicus with 6 samples.

Results

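The genes described here are Myh7, Acta1 and Ckm, which encode proteins of striated muscle and were measured in the lens capsule of young rats with and without a selenite cataract. They are 3 of the 22263 genes listed in the mRNA table, with the identifiers ENSRNOG00000016983 (Myh7), ENSRNOG00000017786 (Acta1) and ENSRNOG00000016837 (Ckm), and all 3 passed the filter on low counts that left 14906 genes for testing. They were chosen from the hub genes that the study drew from its down-regulated mRNAs, so the difference between the groups in these same 6 samples chose them. That difference is therefore given as a description without a test, and the spread within a group, which enters the p-value of that contrast, is described without a test as well.

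Both groups were Sprague-Dawley rat pups. Sodium selenite at 20 µmol/kg was given under the skin of the neck on days 3, 5 and 7 to the 3 animals of the Na2SeO3 group, and saline by the same route to the 3 controls. Total RNA of the lens capsule, from 1 lens per rat, was sequenced as 150 bp paired reads, and no sex, eye side or batch was given. The study reports that pups given selenite weighed less than controls at the end of the experiment and takes this as retarded development. The part of body growth in the levels below was not tested. The mRNA counts summed to between 11874219 and 16120616 per sample. Levels are given as CPM, the counts of a gene per 1000000 counts of its sample.

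Striated muscle contracts when myosin heads of the thick filament pull on actin of the thin filament and spend ATP. Myh7 encodes the slow, or beta, myosin heavy chain, the motor of slow skeletal fibres that is also found in the heart. Acta1 encodes skeletal muscle alpha-actin, the main actin of the skeletal thin filament. Ckm encodes the muscle form of creatine kinase, which renews ATP from phosphocreatine beside the filaments. The lens holds no striated muscle. The nearest striated muscles are the extraocular muscles that insert on the outside of the globe, whereas the sphincter of the iris and the ciliary muscle of a rat are smooth. Whether the libraries held the defining genes of lens, of smooth muscle or of other striated muscle was not examined here. The deposited identifiers carry no symbols and the reference gene table holds 0 of them. The study itself names other striated muscle genes (Myl3, Myh4 and Pygm) and lens genes (Cryab, Bfsp1 and Bfsp2) among its down-regulated hubs. It also reports muscle contraction among the enriched terms of its changed mRNAs. The symbols of the 3 genes came with the definition of the set.

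The sequences around the start sites of the 3 genes are shown because the genes had lower levels together, and they let their regulatory letters be compared. They are RefSeq windows of the GRCr8 assembly, matched by symbol for 3 of 3 genes, and each runs 5′ to 3′ over 300 bases, 50 of them from the annotated start site onward. Myh7 lies on chromosome 15 (chr15:32438145-32438444, minus strand), Acta1 on chromosome 19 (chr19:68784145-68784444, minus strand) and Ckm on chromosome 1 (chr1:88189211-88189510, plus strand). Capitals mark CAGCTG (an E-box, the kind of site that myogenic factors bind), TATAAA (the core of the TATA box) and a CArG box (the site of serum response factor).
Myh7: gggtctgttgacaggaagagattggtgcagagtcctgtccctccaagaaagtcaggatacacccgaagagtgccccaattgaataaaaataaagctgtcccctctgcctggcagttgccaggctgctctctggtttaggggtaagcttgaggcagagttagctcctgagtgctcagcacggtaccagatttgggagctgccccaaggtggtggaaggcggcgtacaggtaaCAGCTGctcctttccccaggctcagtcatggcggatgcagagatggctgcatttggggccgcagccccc
Acta1: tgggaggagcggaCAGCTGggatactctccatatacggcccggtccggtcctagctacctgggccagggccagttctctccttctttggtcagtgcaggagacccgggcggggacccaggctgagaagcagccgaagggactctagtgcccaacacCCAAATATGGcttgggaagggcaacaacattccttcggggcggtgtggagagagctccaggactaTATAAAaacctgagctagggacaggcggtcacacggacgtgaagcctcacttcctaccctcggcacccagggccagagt
Ckm: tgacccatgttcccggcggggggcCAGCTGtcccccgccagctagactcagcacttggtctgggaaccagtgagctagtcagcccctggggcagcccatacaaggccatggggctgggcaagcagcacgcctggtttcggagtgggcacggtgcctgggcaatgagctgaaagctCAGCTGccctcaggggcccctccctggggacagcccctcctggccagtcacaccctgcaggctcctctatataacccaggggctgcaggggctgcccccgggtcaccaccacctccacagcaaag

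CAGCTG occurred in all 3 windows, once in Myh7, once in Acta1 and at 2 places in Ckm, against 15.1% of the 33469 RefSeq windows of the same length. In Acta1 the CArG box lay at -94 to -85 from the start site and TATAAA at -29 to -24. A CArG box occurred in 1.64% of all windows and TATAAA in 14.2%. Neither was matched in the windows of Myh7 and Ckm, and the MEF2 site, held by 3.29% of all windows, was matched in none of the 3. Only the exact letters TATAAA were searched, so a window without a match may still hold a variant form of the TATA box. The wider E-box pattern CANNTG, which includes every CAGCTG, had 4 matches in Myh7, 1 in Acta1 and 3 in Ckm and occurred in 72.1% of all windows. All motifs were searched on both strands. The start site of the Myh7 window lies 1657 bases inside the outer end of the annotated gene, which has 3 RefSeq transcripts. That whole window, with its CAGCTG, therefore lies within the gene and not upstream of the outermost start. The start site of the Ckm window lies 79 bases inside, with 2 RefSeq transcripts, so only part of that window lies upstream of the outermost start. The matches describe letters of the reference and no binding was measured.

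Myh7, the motor of the thick filament, was at 135, 128 and 126 CPM in control replicates 1, 2 and 3 (1985, 1525 and 2028 counts). In Na2SeO3 replicates 1, 2 and 3 it was at 46.3, 52.6 and 54.8 CPM (631, 711 and 698 counts). Every Na2SeO3 sample thus lay below every control sample, and a gap of 71.03 CPM separated the lowest control from the highest Na2SeO3 sample. The control mean was 130 ± 4.59 CPM and the Na2SeO3 mean 51.2 ± 4.42 CPM (SD, n = 3), so the mean level was 60.5% lower. The fitted log2 fold change was -1.50 ± 0.06 (approximate SE), the widest difference of the 3 genes.

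Acta1, the actin of the thin filament, was at 548, 518 and 512 CPM in control replicates 1, 2 and 3 (8066, 6156 and 8252 counts). It was at 249, 292 and 285 CPM in Na2SeO3 replicates 1, 2 and 3 (3401, 3949 and 3635 counts). The groups again did not overlap, and Na2SeO3 replicate 1 was the lowest sample, as it was for Myh7. The control mean was 526 ± 19.0 CPM and the Na2SeO3 mean 276 ± 23.0 CPM (SD, n = 3), 47.6% lower, with a fitted log2 fold change of -1.09 ± 0.05 (approximate SE).

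Ckm, the enzyme that supplies ATP to the filaments, was at 362, 332 and 339 CPM in control replicates 1, 2 and 3 (5327, 3943 and 5467 counts). It was at 187, 182 and 201 CPM in Na2SeO3 replicates 1, 2 and 3 (2549, 2463 and 2561 counts). The groups did not overlap, but here Na2SeO3 replicate 2 was the lowest sample in place of replicate 1. The control mean was 344 ± 15.4 CPM and the Na2SeO3 mean 190 ± 9.70 CPM (SD, n = 3), 44.8% lower, with a fitted log2 fold change of -1.02 ± 0.05 (approximate SE). That value lies just inside the study's limit of a log2 fold change of -1. The study's own values for the 3 genes were somewhat more negative, least so for Myh7. Its value for Ckm also lay not far from that limit.

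**Figure D1:**
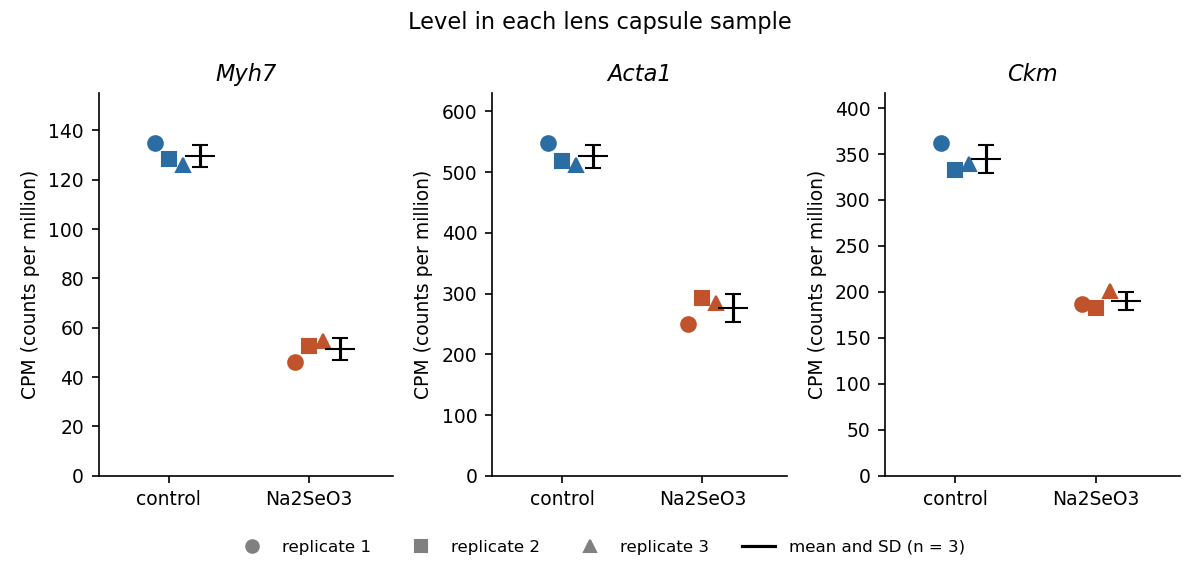
Level of Myh7, Acta1 and Ckm in CPM (vertical axes, from 0) in the 3 control and 3 Na2SeO3 samples, with the mean and SD of each group beside the points. In each panel all 3 Na2SeO3 samples sit below all 3 control samples, from 46.3 to 54.8 against 126 to 135 CPM for Myh7.

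All 3 genes met the criteria for a lower level in the Na2SeO3 group (adjusted p-value under 0.05 and log2 fold change below -1), as did 5.23% of the 14906 genes tested. In all 3 every Na2SeO3 sample was below every control sample in CPM, as it was for 16.1% of the genes tested. Since this contrast chose the genes, nothing is read from these counts. A log2 fold change at or below that of Myh7 was found for 365 genes (2.45% of those tested), and at or below that of Ckm for 777 genes (5.21%). Among the 500 genes nearest in abundance, 6 had a value as low as that of Myh7, 10 as low as that of Acta1 and 10 as low as that of Ckm. The medians of these neighbours were -0.03, 0.02 and -0.01.

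**Figure D2:**
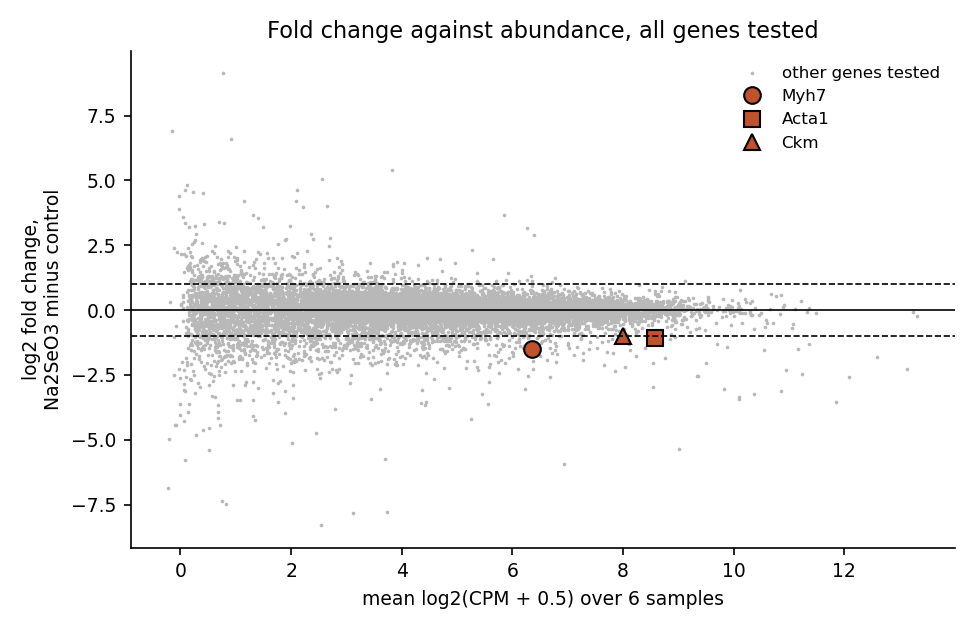
Log2 fold change of the Na2SeO3 group against the control group (vertical axis) by mean log2(CPM + 0.5) over the 6 samples (horizontal axis) for the 14906 genes tested, with the 3 muscle genes as large symbols and dashed lines at -1 and 1. Myh7 lies at -1.50, Acta1 at -1.09 and Ckm at -1.02, under the band in which most genes of like abundance lie.

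The size of the difference depended on the scaling, and for Acta1 and Ckm the call did too. Over all genes tested the median log2 fold change was 0.01 when TMM factors scaled the libraries and 0.16 when total counts did. The values of Myh7, Acta1 and Ckm then became -1.34, -0.93 and -0.86, so only Myh7 stayed past -1, whereas their distances from that median were -1.51, -1.10 and -1.02 under both scalings. Ckm also passed above -1 with upper-quartile factors (-0.99), without control replicate 1 (-0.97), without Na2SeO3 replicate 1 (-0.998) and without Na2SeO3 replicate 2 (-0.99).

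**Figure D3:**
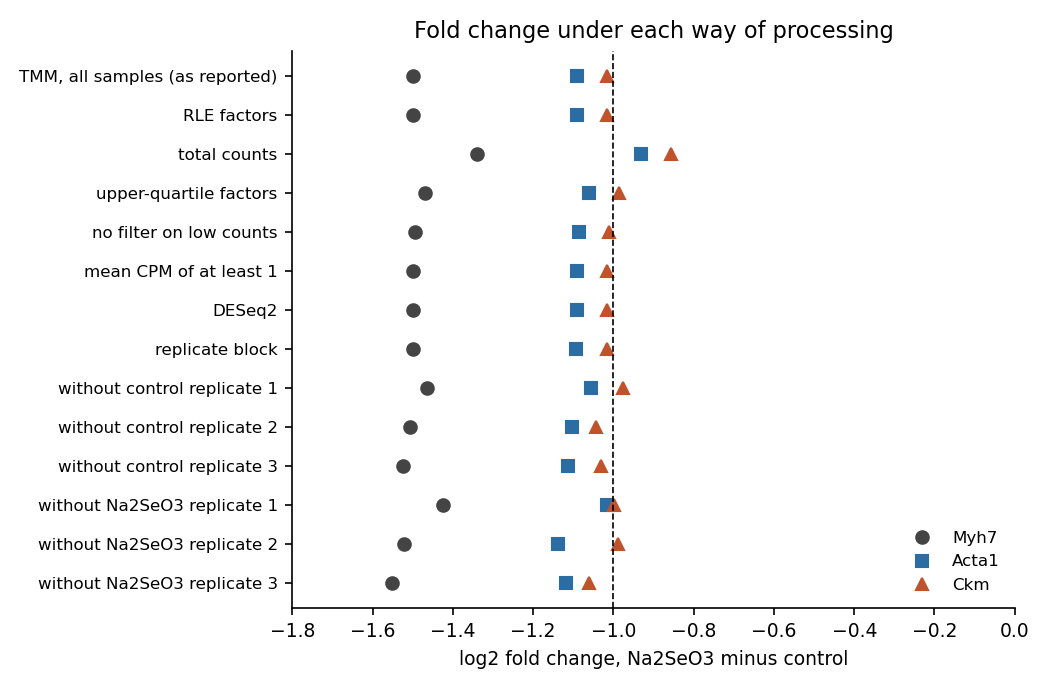
Log2 fold change of Myh7, Acta1 and Ckm (horizontal axis) under each scaling, filter, tool and left-out sample (vertical axis), with a dashed line at the limit of -1. Myh7 lies between -1.55 and -1.34 throughout, while Ckm crosses the line in 5 of the 14 settings and Acta1 crosses it with total counts.

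The 3 genes were then set against each other within a sample, since a ratio of 2 genes in 1 library is the same under any scaling of that library. For each 100 counts of Acta1 there were 24.6, 24.8 and 24.6 counts of Myh7 in control replicates 1, 2 and 3. The Na2SeO3 replicates had 18.6, 18.0 and 19.2. The ratio was thus nearly constant within the control group, lower in each Na2SeO3 sample, and without overlap. The share of other gene pairs without overlap was not computed, so nothing is read from this separation. Its means were 24.7 ± 0.11 and 18.6 ± 0.60 (SD, n = 3), where counting alone gives a standard error of 0.645 for a control sample and 0.777 for a Na2SeO3 sample. The spread of this ratio between rats was therefore no larger than counting error in either group, and the Na2SeO3 mean was 0.754 times the control mean.

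Myh7 was also lower relative to Ckm. There were 37.3, 38.7 and 37.1 counts of Myh7 per 100 counts of Ckm in control replicates 1, 2 and 3, and 24.8, 28.9 and 27.3 in Na2SeO3 replicates 1, 2 and 3. The means of 37.7 ± 0.87 and 27.0 ± 2.07 (SD, n = 3) differed by a factor of 0.716, and the groups did not overlap. The ratio of Acta1 to Ckm overlapped between the groups. Control replicates 1, 2 and 3 had 151, 156 and 151 counts of Acta1 per 100 counts of Ckm, and Na2SeO3 replicates 1, 2 and 3 had 133, 160 and 142. The means were 153 ± 2.87 and 145 ± 13.8 (SD, n = 3). In the Na2SeO3 group the SD between samples was 13.8 for this ratio, where counting alone gives 3.76, and 2.07 for Myh7 per 100 Ckm, where counting alone gives 1.16. Between the groups the log2 ratio of Myh7 to Acta1 differed by -0.41, that of Myh7 to Ckm by -0.49 and that of Acta1 to Ckm by -0.08. These values come from the contrast that chose the genes and were not tested. The separation of the groups in Myh7 per 100 Ckm likewise has no share of other gene pairs beside it.

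**Figure D4:**
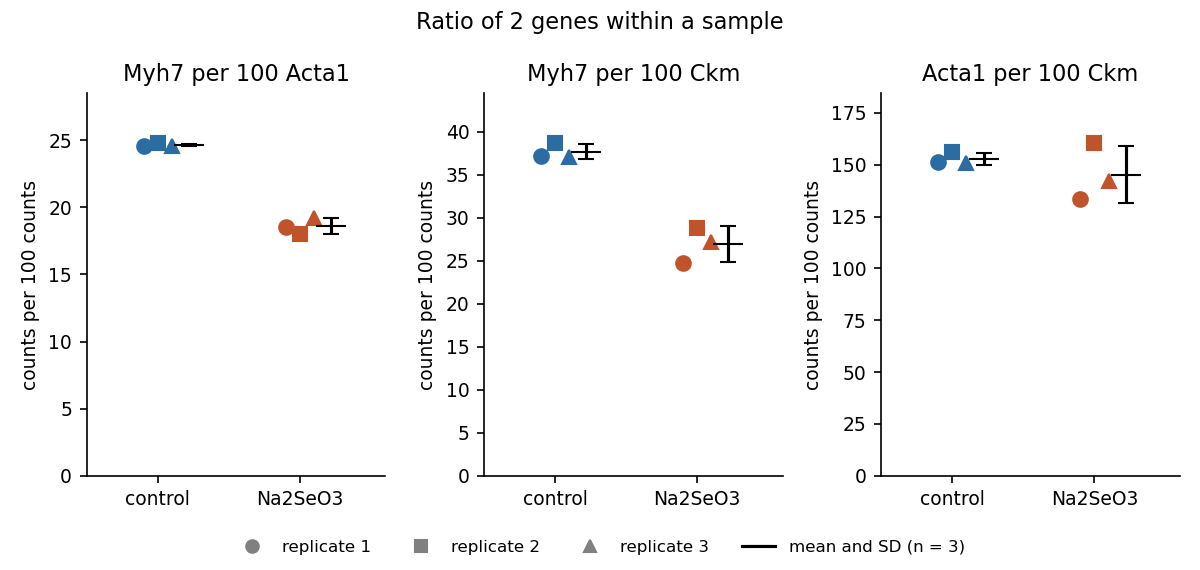
Counts of the first gene per 100 counts of the second in the same sample (vertical axes, from 0), for the 3 pairs of genes, with the mean and SD of each group. Myh7 per 100 Acta1 lies at 24.6 to 24.8 in the control group and 18.0 to 19.2 in the Na2SeO3 group, while Acta1 per 100 Ckm overlaps between the groups.

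The spread between replicates entered the choice of the genes only through the p-value of the contrast, which a small spread lowers, so it too is given as a description. Within the control group the coefficient of variation of CPM was 3.54% for Myh7, 3.60% for Acta1 and 4.48% for Ckm, where counting alone gives 2.33%, 1.16% and 1.43%. Within the Na2SeO3 group it was 8.63%, 8.35% and 5.10%, where counting alone gives 3.83%, 1.65% and 1.99%. The observed variation was above that of counting alone in each case, by the smallest factor for Myh7 in the control group. For Myh7 and Acta1 it was wider in the Na2SeO3 group than in the control group, which was not tested with 3 samples each. The SD of log2 CPM within groups was 0.10 for Myh7, 0.09 for Acta1 and 0.07 for Ckm, against medians of 0.07, 0.04 and 0.05 among the 500 genes nearest in abundance to each. It exceeded that of 80.8%, 96.0% and 79.2% of these neighbours, so the 3 genes were among the more variable genes of their abundance, Acta1 most clearly.

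Samples of a group also deviated together. Control replicate 1 was above its group mean for all 3 genes, by 0.06 on the log2 scale for Myh7, 0.06 for Acta1 and 0.07 for Ckm, and control replicates 2 and 3 were below it for all 3. Na2SeO3 replicate 1 was below its group mean for all 3 genes, by -0.14 for Myh7 and Acta1 but only -0.02 for Ckm. Na2SeO3 replicate 3 was above it for all 3, while Na2SeO3 replicate 2 was above it for Myh7 (0.04) and Acta1 (0.09) and below it for Ckm (-0.06). The genes of the thick and thin filament thus deviated in the same direction in 6 of 6 samples, and Ckm went the other way in 1. Over the 6 samples the deviations of Myh7 and Acta1 had a Pearson r of 0.94, those of Myh7 and Ckm of 0.547 and those of Acta1 and Ckm of 0.322. These are descriptions over 6 points that share their libraries, and they keep few degrees of freedom once 2 group means are removed.

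**Figure D5:**
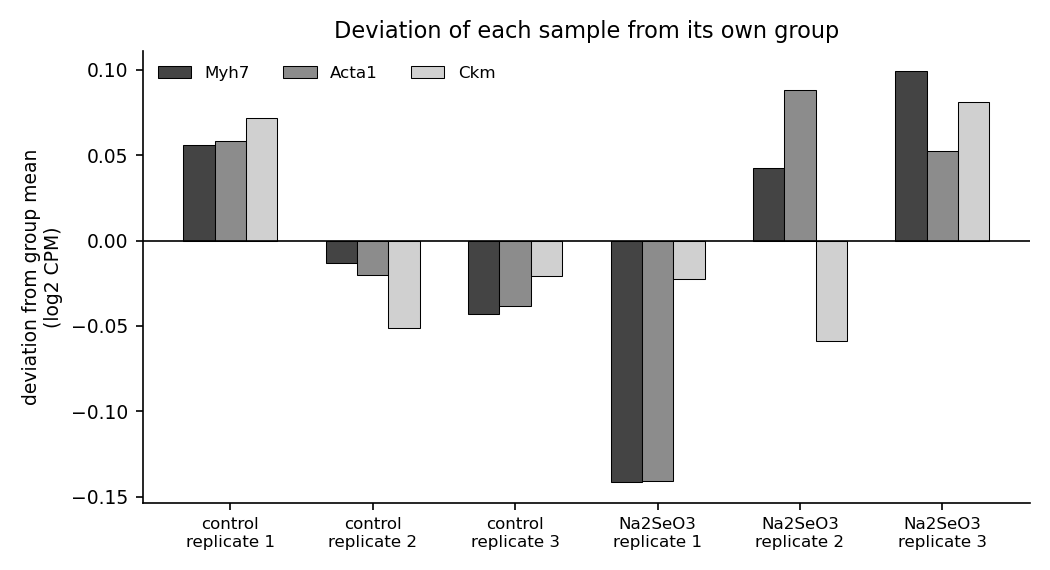
Deviation of each sample from the mean of its own group in log2 CPM (vertical axis) for Myh7, Acta1 and Ckm in the 6 samples. Na2SeO3 replicate 1 is low for Myh7 and Acta1 (-0.14 each) and near its group mean for Ckm (-0.02), and control replicate 1 is high for all 3.

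Other genes were ranked by how closely their deviations followed the mean deviation of the 3 genes. Of 7216 genes with a mean of at least 10 CPM and a spread at least as large as the smallest of the 3, 227 had an r of at least 0.9. With 6 points and 2 group means removed, such values arise readily among so many genes. The share expected without any link was not computed, so the ranking is a description only. By a rule that took the 2 closest in each direction, those with a fitted fold change below 0 were ENSRNOG00000020674 (r = 0.994) and ENSRNOG00000048273 (r = 0.993). The closest with a fitted fold change above 0 were ENSRNOG00000005600 and ENSRNOG00000012733 (r = 0.992 each), and the level of the first did not pass the test (log2 fold change 0.03 ± 0.13, approximate SE, edgeR quasi-likelihood adjusted p = 0.878). Only ENSRNOG00000048273 met the criteria for a changed level among these 4. Its control mean was 14.6 ± 1.74 CPM and its Na2SeO3 mean 7.68 ± 1.47 CPM (SD, n = 3), and its log2 fold change was -1.09 ± 0.15 (approximate SE) with an edgeR quasi-likelihood adjusted p of 1.17e-06. For comparison, ENSRNOG00000012733 had a control mean of 254 ± 10.7 CPM and a Na2SeO3 mean of 345 ± 24.7 CPM (SD, n = 3). ENSRNOG00000012733 and ENSRNOG00000020674 passed the limit on the adjusted p-value but not that on the fold change. Their log2 fold changes were 0.28 and -0.49 (edgeR quasi-likelihood adjusted p = 2.80e-05 and 3.65e-06). When the group difference was kept in, 934 of the other 14905 genes had an r of at least 0.95 with Myh7, 885 with Acta1 and 916 with Ckm, and these values largely restate the contrast that chose the genes.

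The 3 genes together took 0.104%, 0.0979% and 0.0977% of the mRNA counts in control replicates 1, 2 and 3, and 0.0483%, 0.0527% and 0.0541% in Na2SeO3 replicates 1, 2 and 3. They were thus well above the limit of detection in every sample, with at least 631 counts each. In whole tissue, fewer cells of a type and less RNA per cell cannot be told apart. The amount of muscle in the dissected tissue was not recorded in the labels, and its part in these levels was not tested. Some reads may also be shared with near-identical genes, since Myh7 neighbours the cardiac myosin gene Myh6 in the reference and Acta1 has close relatives among the cardiac and smooth muscle actins. How such reads and their strand were counted was not given in the sources used here.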

How the data were processed

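Per the labels and the study's methods, reads were trimmed with Cutadapt and Fqtrim, checked with FastQC and aligned with HISAT2 to an Ensembl rat reference. The build, annotation release, counting tool and strandedness were not given in the sources used here. The authors deposited the mRNA table as whole-number counts per Ensembl gene ID, with 1 column per sample and no pooling. The lncRNA and circRNA tables were not used here.

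Genes were filtered with filterByExpr in edgeR 4.0.16 (R 4.3.3), scaled with TMM factors and compared with the quasi-likelihood test without covariates. Benjamini-Hochberg adjustment ran over all 14906 genes. Following the study's criteria, calls needed an adjusted p-value below 0.05 together with a log2 fold change beyond 1 in either direction. The study reported fewer changed mRNAs than were called here. The approximate SE is the fold change divided by the square root of F. CPM used column totals, and deviations used a pseudocount of 0.5. The fit was tested on simulated data. The genes named by ID followed a rule on likeness of pattern (r of deviations, the 2 closest in each direction). The genes and the rules were chosen with earlier results of these data known. Same-numbered replicates are different rats and their deviations did not correlate (r of -0.02 to -0.01). The planned muscle and marker lists were not computed, since IDs carry no symbols. RefSeq windows came from GRCr8, and the counts' own build is unknown. Counting errors assume independent reads, and whether PCR copies were marked or removed was not given in the sources used here.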

Additional observations from a re-analysis of the deposited data

How the results depend on the processing

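Alternatives were other scalings, filters, DESeq2 1.42.0, a replicate block, no fold-change limit and leaving out each sample. The fold changes of Myh7, Acta1 and Ckm stayed negative in each. Total counts moved them to -1.34, -0.93 and -0.86, as this scaling shifted all genes, and raised the share of higher genes among calls from 32.6% to 49.1%. Leaving out 1 sample at a time gave -1.55 to -1.42 for Myh7, -1.14 to -1.02 for Acta1 and -1.06 to -0.97 for Ckm. The 1155 calls became 6990 with no fold-change limit and lay between 1051 and 1326 otherwise, and the replicate block (1142 calls) left the 3 fold changes at -1.50, -1.09 and -1.02. The coefficients of variation stayed within 1.5 times of those given with TMM factors or without the 50 most abundant genes. The 4 genes named by pattern kept r above 0.99 with TMM factors and with a pseudocount of 1. Both changes alter the deviations little, so this does not test the likeness. The planned muscle lists need symbols and were left out. The fewest counts behind a ratio were 631, for Myh7 in Na2SeO3 replicate 1.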
